A study of Mus musculus with 3 samples.

Results

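Sinusoidal endothelial cells (ECs) line the wide, thin-walled venous vessels of the bone marrow. In droplet single-cell RNA sequencing of mouse metaphysis, 872 cells were chosen as sinusoidal ECs from 4386 cells that passed quality filters, 478 of 2382 in library 1 and 394 of 2004 in library 2. All 3 libraries of the series together held 13401 such cells. A cell was kept with at least 1500 genes, at most 15% of its UMIs (unique molecular identifiers, 1 per captured RNA molecule) from mitochondrial genes and at most 30% from ribosomal protein genes. It was called endothelial when at least 2 of Pecam1, Cdh5, Kdr, Tie1 and Egfl7 were detected. It was called sinusoidal when at least 2 of Stab2, Mrc1, Selp, Flt4 and Cd36 were detected, and more of these than of 5 arterial genes (Gja4, Gja5, Sema3g, Egfl8, Edn1) and than of 5 metaphyseal EC genes (Aplnr, Ramp3, Piezo2, Apln, Ednrb). Cells with 5 or more UMIs summed over Top2a, Mki67, Birc5, Cdk1 and Ccnb2 were set aside as cycling.

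The study profiled stromal cells of growing bone around the cartilage border. Both metaphyseal libraries came from long bones of untreated wild-type C57BL/6J males of 3 weeks, from the metaphysis, after depletion of lineage-positive, CD45+ and CD117+ cells. The third library came from Pdgfra-H2B-GFP males of the same age, heterozygous for a nuclear GFP reporter knocked into Pdgfra, whose GFP+ cells were sorted. It enters no main test and is used for values set side by side and for alternative fits. The labels name the metaphyseal samples as mesenchymal stromal cells, yet 1172 of 2382 and 924 of 2004 cells passed the endothelial gate. Total UMIs were 25243314 in library 1, 22082735 in library 2 and 91747759 in the Pdgfra-GFP library. Sinusoidal ECs had a median of 5604.5 and 5917.5 UMIs, metaphyseal ECs 6165.0 and 6417.0, arterial ECs 6791.0 and 6704.5, and cells outside the endothelial gate 6560.5 and 6734.5. The labels call the 2 metaphyseal libraries replicates without saying whether they came from separate animals. The p-values rest on how far differences between populations varied between these 2 libraries, a spread that may be technical.

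Marrow sinusoids collect blood from the arterial side of the marrow and are the route by which blood cells enter the circulation. Their endothelium is known for endocytosis through scavenger receptors such as the stabilins, for adhesion molecules that hold passing leukocytes and progenitors, and for an incomplete basement membrane. The metaphyseal vessels near the growth plate, by contrast, are columns of capillaries that grow towards the cartilage, and arterial ECs lie upstream of both.

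Sinusoidal ECs made up 40.8% (95% interval 38% to 43.7%) of the 1172 ECs of library 1 and 42.6% (95% interval 39.4% to 45.9%) of the 924 ECs of library 2 (exact Clopper-Pearson intervals, which cover counting error only), a mean of 41.7% ± 1.31 (SD, n = 2). The other ECs were 402 and 307 metaphyseal, 90 and 66 arterial, 80 and 66 cycling and 122 and 91 that met no rule. At the edge of the rule, 23 and 16 members had 2 of the 5 sinusoidal genes, and 268 and 246 ECs with a single one stayed outside. A further 206 and 133 ECs had at least 2 but no more than of another set. Few members were free of the other sets: 52 of 478 and 39 of 394 had no arterial and no metaphyseal gate gene. The cycle limit removed 15 of 493 sinusoidal cells (3.04%) and 17 of 411 (4.14%). It removed 48 of 450 (10.7%) and 37 of 344 (10.8%) of the metaphyseal ECs, and 1 of 91 (1.1%) and 5 of 71 (7.04%) of the arterial ECs.

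The members' label was checked against genes that the rule did not use. Fabp4, a fatty acid carrier that marks marrow sinusoids among the listed markers, and Stab1 and Gpr182, endothelial receptors of sinusoids, were high (below). Genes of other cell types were mixed, and those of neutrophils, red cells, stroma, cartilage and mural cells are given below. Of 15 macrophage genes, 3 passed the filter on low counts, and the list summed to 369 and 388 CPM (UMIs per 1000000 UMIs of a population) in the members and 589 and 527 CPM in metaphyseal ECs, led by Fcer1g (279 and 285 CPM). Tyrobp (15 and 12.6 CPM) was higher and Fcer1g lower than in metaphyseal ECs, and none was called against arterial ECs. In arterial ECs the list summed to 172 and 1579.8 CPM, and the 2 libraries differed, with Lyz2 at 0 and 1222 CPM. Lyz2 was at 67.3 and 79.4 CPM in the members and 5.82 and 5.93 CPM in metaphyseal ECs (edgeR adjusted p = 0.0761). The list's complement and receptor genes C1qa, C1qb, C1qc, Adgre1 and Csf1r were each at or below 0.697 CPM. No member had UMIs of 2 or more of 6 macrophage genes, and 3 and 2 members had UMIs of at least 4 of the 15. Of 6 lymphatic genes, Prox1 (2.09 and 5.93 CPM), Lyve1 (0 and 0.395 CPM) and Pdpn (0.349 and 0 CPM) were close to 0 and Ccl21a and Reln had no UMI, while Mmrn1, a multimerin that lymphatic ECs express, was at 114 and 110.2 CPM and higher than in both other EC populations. Lyve1 also marks liver sinusoids, and Cd209b, Clec4g and Gata4, further genes of these, had no UMI in the members. The 2 libraries shared none of the barcodes of kept cells, and each shared 7 with the Pdgfra-GFP library. Of the members, 8 and 4 were called doublets by Scrublet, and 24 (5.02%) and 26 (6.60%) had UMIs of at least 4 genes of 1 other cell type, mostly marrow stromal (17 and 19 cells). Among metaphyseal ECs such cells were 12 (2.99%) and 12 (3.91%), and among arterial ECs 5 (5.56%) and 5 (7.58%).

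The gate genes chose the cells, so their values only describe them. Stab2 and Mrc1, endocytic receptors for hyaluronan and mannose-bearing glycoproteins, stood at 758 and 733 and at 682 and 625 CPM in the members of libraries 1 and 2. Selp, the selectin that captures leukocytes, was at 321 and 328 CPM, Flt4, the VEGF-C receptor, at 548 and 559 CPM, and Cd36, a fatty acid and scavenger receptor, at 250.3 and 259 CPM. Members were also chosen again without the gene in question. Its level was then 802 and 769 CPM for Stab2, 706 and 649 for Mrc1 and 324 and 326 for Selp. It was 568 and 574 CPM for Flt4 and 248 and 256 CPM for Cd36. Leaving out a gene can only remove cells, so those chosen again were part of the same members (430 and 335 cells for Stab2). Most of the same cells were thus summed again, so these levels are no separate check of the rule. The genes lie on GRCm38 (Gencode M21 annotation) at chr10:86841198-87008025, minus strand (Stab2), chr2:14229392-14332057, plus strand (Mrc1), chr11:49609263-49652739, plus strand (Flt4) and chr5:17781690-17888801, minus strand (Cd36), and all are protein-coding.

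**Figure D1:**
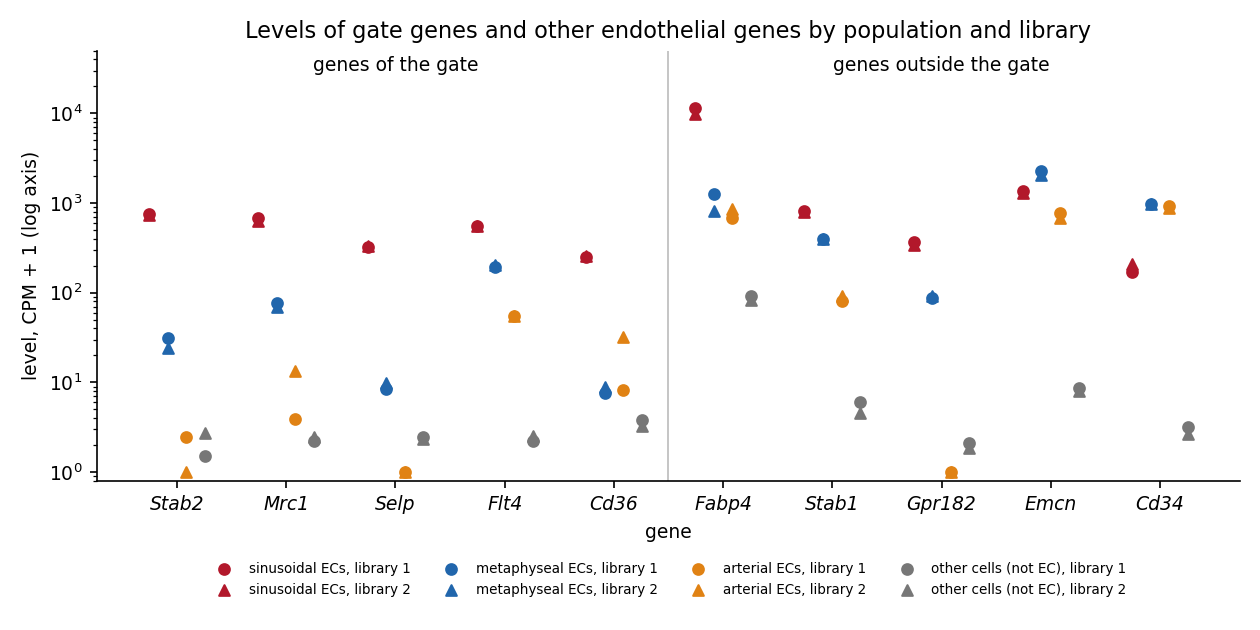
Level of each gene (CPM, plus 1, log axis) in the summed cells of a population, with 1 point per library (circles library 1, triangles library 2). Left of the line are the genes that chose the sinusoidal ECs, and right of it genes that did not, among which Fabp4, Stab1 and Gpr182 were highest in sinusoidal ECs and Cd34 lowest of the 3 EC populations.

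Fabp4 (chr3:10204088-10208576, minus strand), the 1 listed marker outside the gate, held 11519 and 9736 CPM in the members. It was at 1254 and 816 CPM in metaphyseal ECs, 682 and 853 CPM in arterial ECs and 90.2 and 82.1 CPM outside the endothelial gate. The groups did not overlap, and the fit gave a log2 fold change of 3.4 ± 0.18 (SE, edgeR adjusted p = 1.21e-06) against metaphyseal and 3.73 ± 0.18 (SE, edgeR adjusted p = 4.24e-07) against arterial ECs. The median member had 106 and 89.3 Fabp4 UMIs per 10000, and the median metaphyseal EC 1.9 and 1.53. Only 8 and 6 members had none. With every cell thinned to 2500 UMIs, mean Fabp4 was 14.3 and 12.1 UMIs in members with 2 gate genes and 35.9 and 30.7 in members with all 5, so a gene that the rule did not use still varied with it.

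**Figure D2:**
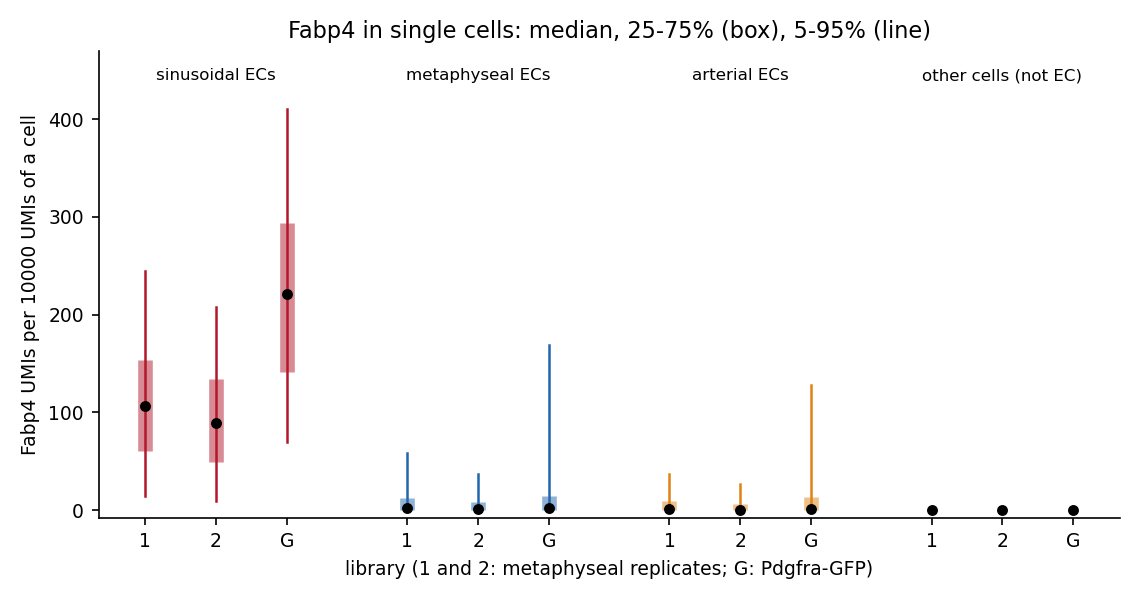
Fabp4 UMIs per 10000 UMIs of a cell, by population and library (1 and 2 metaphyseal, G Pdgfra-GFP). Dots are medians, boxes span 25% to 75% of cells and lines 5% to 95%, and in every library the sinusoidal ECs' 5% point lay above the other populations' medians.

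For each library the UMIs of all cells of a population were added up, and sinusoidal ECs were compared with metaphyseal and with arterial ECs by edgeR's quasi-likelihood test with the library as a block, over 11062 genes. Both comparisons use the same sinusoidal sums. A log2 fold change given without a library is not from this fit. It is the difference of log2 CPM in the other library, with a prior count of 2. That count makes fold changes of genes with few UMIs smaller than in the fit. Against metaphyseal ECs, 2614 genes (23.6%) had an adjusted p under 0.05, 1395 higher in sinusoidal ECs (12.6%) and 1219 lower (11%). Against arterial ECs the count was 3029 (27.4%), 1511 higher and 1518 lower (13.7% each way). At least 2-fold differences accounted for 1052 and 1677 of these calls, and the median log2 fold change of all genes was 0.01 and 0.03. The populations were set apart by gate genes in the same cells, so any gene that varies with those differs between them. The counts are therefore the background for the gene lists below, not a measure of how far the populations differ. DESeq2 on the same genes called 1019 and 1764.

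**Figure D3:**
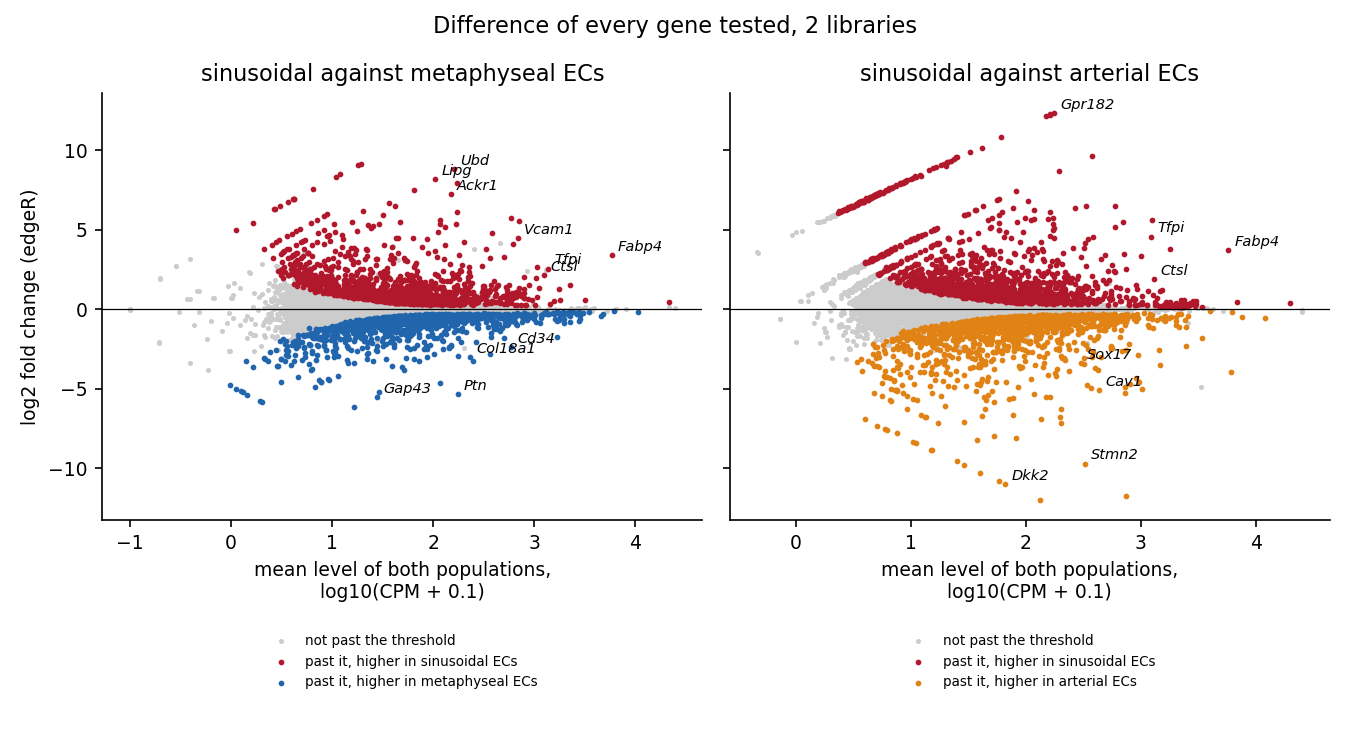
Log2 fold change of each of the 11062 genes tested (edgeR) against the mean level of both populations, log10(CPM + 0.1), for sinusoidal against metaphyseal ECs (left) and arterial ECs (right). Coloured points passed the threshold, 2614 on the left and 3029 on the right, with genes higher in sinusoidal ECs above 0, and straight rows of points are genes with 0 or very few UMIs in 1 population.

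Scavenger receptors and the endocytic machinery were mostly higher in sinusoidal ECs. Of 17 genes tested, 11 were higher and 3 lower than in metaphyseal ECs, and 10 and 4 than in arterial ECs, with median log2 fold changes of 0.61 and 0.72. Stab1, the stabilin related to Stab2, stood at 819.8 and 798 CPM in sinusoidal ECs, 394 and 398 CPM in metaphyseal ECs and 80.9 and 90.1 CPM in arterial ECs. Its 2 sinusoidal values lay above all 4 others, and the log2 fold changes were 1.06 ± 0.09 (SE, edgeR adjusted p = 2.89e-05) and 3.2 ± 0.11 (SE, edgeR adjusted p = 5.26e-08). Dab2, an adaptor that loads receptors into clathrin-coated pits, was at 432 and 456 CPM in sinusoidal ECs, 239 and 245 CPM in metaphyseal ECs and 104 and 129.9 CPM in arterial ECs. Clathrin heavy chain itself, Cltc, was at 402 and 403 CPM in sinusoidal ECs, 246 and 255 CPM in metaphyseal ECs and 157 and 163 CPM in arterial ECs, with log2 fold changes of 0.71 and 1.28. Ehd3, a membrane-shaping protein of recycling endosomes, differed by 1.74 and 2.6 and Snx5, a sorting nexin, by 1.42 and 2.43. The genes of caveolae, the other route of uptake, did not move as 1 group. Cav1, their coat protein, was lowest in sinusoidal ECs, at 22.3 and 28.8 CPM in sinusoidal ECs, 149 and 147 CPM in metaphyseal ECs and 858 and 805 CPM in arterial ECs. Its log2 fold changes were -2.51 and -5.07 (edgeR adjusted p = 1.19e-06 and 1.27e-08), while Cavin2, another caveolar protein, was higher, with 659 and 649.6 CPM in sinusoidal ECs, 249 and 209.6 CPM in metaphyseal ECs and 489.8 and 354 CPM in arterial ECs. Ehd4, a relative of Ehd3, was lower than in both other populations (-1.11 and -2.93).

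Lysosomal genes showed the same direction, led by proteases. Of 20 tested, 10 were higher and 1 lower than in metaphyseal ECs, and 10 and 2 than in arterial ECs (median log2 fold changes 0.31 and 0.68). Ctsl, a cysteine protease of lysosomes (chr13:64359337-64370890, minus strand), held 2293 and 1798 CPM in sinusoidal ECs, 493 and 431 CPM in metaphyseal ECs and 597 and 474 CPM in arterial ECs. For Ctsl the log2 fold change was 2.17 ± 0.07 (SE, edgeR adjusted p = 7.01e-08) and 1.89 ± 0.07 (SE, edgeR adjusted p = 1.02e-07), and it was also above the 713 and 699 CPM of cells outside the endothelial gate. Lgmn, the asparaginyl protease legumain, was at 1047 and 949 CPM in sinusoidal ECs, 417 and 394 CPM in metaphyseal ECs and 207 and 176 CPM in arterial ECs, a log2 difference of 1.33 and 2.34. Ctsb was at 1387 and 1317 CPM in sinusoidal ECs, 804 and 785 CPM in metaphyseal ECs and 452 and 438 CPM in arterial ECs (0.79 and 1.56), and the protease Ctsd, the activator precursor Psap and the peptidase Tpp1 were higher in both comparisons. Lamp1, a structural membrane protein of lysosomes, was at 509 and 438 CPM in sinusoidal ECs, 427 and 364 CPM in metaphyseal ECs and 491 and 515 CPM in arterial ECs and passed the threshold in neither. Ctsz and Asah1 fell against arterial ECs (-1.0 and -0.51).

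Several genes of lipid handling differed besides Fabp4. Of 14 further genes tested, 8 were higher and 2 lower than in metaphyseal ECs, and 4 and 2 than in arterial ECs (medians 0.76 and 0.79). Pparg, the nuclear receptor that directs fatty acid storage genes (chr6:115360951-115490399, plus strand), was at 349 and 317 CPM in sinusoidal ECs, 34.9 and 26.7 CPM in metaphyseal ECs and 7.22 and 14.7 CPM in arterial ECs. No value overlapped, and its log2 fold changes were 3.45 ± 0.14 (SE, edgeR adjusted p = 3.25e-07) and 4.98 ± 0.23 (SE, edgeR adjusted p = 3.04e-07, 4.28 without library 1). Angptl4, a secreted inhibitor of lipoprotein lipase, was at 654 and 591 CPM in sinusoidal ECs, 60.1 and 32.1 CPM in metaphyseal ECs and 37.6 and 31.4 CPM in arterial ECs, a difference of 3.8 and 4.15, with 414 and 400.2 CPM outside the endothelial gate. Lipg, the endothelial lipase that acts on HDL, stood at 201 and 213 CPM in sinusoidal ECs. It had 3 UMIs in all metaphyseal ECs and 2 in all arterial ECs, which puts it 317-fold (95% counting interval 108 to 1540.4, 519-fold without library 2) and 121-fold (95% counting interval 33.4 to 1000, 69.7-fold without library 2) higher (edgeR adjusted p = 6.81e-08 and 4.89e-07). Gpihbp1, the capillary anchor of lipoprotein lipase, went the other way against metaphyseal ECs, with 750.4 and 710.1 CPM in sinusoidal ECs, 1043 and 863 CPM in metaphyseal ECs and 344 and 375 CPM in arterial ECs (-0.36 ± 0.10 (SE, edgeR adjusted p = 0.0337)). Tcf15, a transcription factor of fatty acid uptake in capillaries, was at 2.79 and 2.77 CPM and lower than in both. Against metaphyseal ECs, Lpl itself passed narrowly (log2 fold change 1.28, edgeR adjusted p = 0.0437, 2.61 without library 1 and 0.47 without library 2), with 243 and 202 CPM in sinusoidal ECs, 177 and 33.1 CPM in metaphyseal ECs and 89.6 and 98.5 CPM in arterial ECs and 2422 and 2546 CPM outside the gate.

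Genes that capture leukocytes split into a high and a low set. Of 20 adhesion and chemokine genes tested, 8 were higher and 5 lower than in metaphyseal ECs (median 0.70). Against arterial ECs, 8 were higher and 7 lower (median 0.64). This arterial median was -0.07 with the Pdgfra-GFP library added, and 0.26 and 0.03 with it in place of library 1 or library 2. Vcam1, the integrin ligand that holds progenitors and leukocytes (chr3:116109949-116129688, minus strand), was at 1354 and 1277 CPM in sinusoidal ECs, 76.1 and 44 CPM in metaphyseal ECs and 99.7 and 132 CPM in arterial ECs. Its log2 fold changes were 4.49 ± 0.22 (SE, edgeR adjusted p = 8.7e-07) and 3.47 ± 0.22 (SE, edgeR adjusted p = 2.75e-06), and cells outside the gate had 956 and 1008 CPM. Icam1, the ligand of leukocyte integrins, was at 339.8 and 349 CPM in sinusoidal ECs, 109.8 and 90.5 CPM in metaphyseal ECs and 78 and 83.8 CPM in arterial ECs (1.81 and 2.06). Ackr1, the atypical receptor that presents chemokines on venular endothelium, stood at 329 and 263 CPM against 2.33 and 1.48 CPM in metaphyseal ECs (7.24 ± 0.18 (SE, edgeR adjusted p = 6.81e-08, 6.61 without library 2)). No arterial EC had an Ackr1 UMI, so that it was at least 116-fold higher, with 3 UMIs over the arterial cells as the floor. Il6st, the signalling subunit of the interleukin 6 receptor family, was at 911 and 885 CPM in sinusoidal ECs, 116 and 76.6 CPM in metaphyseal ECs and 85.2 and 75.4 CPM in arterial ECs (3.27 and 3.45). The low set held Icam2, at 301 and 281 CPM in sinusoidal ECs, 709 and 642 CPM in metaphyseal ECs and 715 and 656 CPM in arterial ECs, the sialomucin Podxl, at 70.8 and 73.5 CPM in sinusoidal ECs, 308 and 309 CPM in metaphyseal ECs and 539 and 608 CPM in arterial ECs, and the junctional molecules Jam2 and Jam3. Podxl had log2 fold changes of -2.07 and -3.03 (edgeR adjusted p = 9.19e-07 and 7.66e-08).

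Sele, the endothelial selectin, stood at 138 and 106 CPM in sinusoidal ECs and 6.6 and 4.45 CPM in metaphyseal ECs (4.47 ± 0.17 (SE, edgeR adjusted p = 5.23e-07)), and was at least 48-fold higher than in arterial ECs, where it had no UMI. It neighbours the gate gene Selp on chromosome 1 of GRCm38 (Sele chr1:164048234-164057677, plus strand; Selp chr1:164115264-164150026, plus strand). Selp was at 7.37 and 8.9 CPM in metaphyseal ECs and 0 in arterial ECs, levels that the choice of cells helped to set. The products of the Fos and Jun genes, which were higher in sinusoidal ECs, bind the AP-1 motif. The 250 bases before the start of each selectin gene are therefore shown. They are RefSeq sequences of GRCm38.p6, at chr1:164047984-164048233 for Sele and chr1:164115014-164115263 for Selp, both on the plus strand. In capitals are the letters searched for, TGANTCA, a loose form of the AP-1 motif in which N is any base (the pattern reads the same on both strands).
Sele: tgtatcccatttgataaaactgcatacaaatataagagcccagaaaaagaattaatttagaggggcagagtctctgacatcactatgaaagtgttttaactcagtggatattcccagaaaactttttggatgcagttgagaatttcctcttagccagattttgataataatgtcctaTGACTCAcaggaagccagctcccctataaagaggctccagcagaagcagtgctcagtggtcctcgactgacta
Selp: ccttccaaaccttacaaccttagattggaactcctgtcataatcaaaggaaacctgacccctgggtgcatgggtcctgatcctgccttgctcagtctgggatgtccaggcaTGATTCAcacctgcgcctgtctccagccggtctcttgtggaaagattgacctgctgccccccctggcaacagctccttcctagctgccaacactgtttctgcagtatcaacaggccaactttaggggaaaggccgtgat
Sele held 1 match, 73 bases before its start, and Selp 1, 139 bases before. Of 32851 promoters of this length, 6.75% hold the letters. Of the 18 genes named below as most strongly higher in sinusoidal ECs, 15 had a promoter sequence and 1, Sele, held the letters, so the motif was no more frequent there than in all promoters. A match of letters does not show a bound site.

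Among 14 genes of haemostasis, 4 were higher and 4 lower than in metaphyseal ECs and 5 and 4 than in arterial ECs (medians 0.28 and -0.0042). Tfpi, the inhibitor of tissue factor (chr2:84432855-84476775, minus strand), held 2442 and 2227 CPM in sinusoidal ECs, 402 and 400.0 CPM in metaphyseal ECs and 91 and 98.5 CPM in arterial ECs. This was a step at each population, with log2 fold changes of 2.57 ± 0.08 (SE, edgeR adjusted p = 6.81e-08) and 4.58 ± 0.09 (SE, edgeR adjusted p = 1.97e-09). F8, coagulation factor VIII (chrX:75172715-75382615, minus strand), followed the same order, at 325 and 314 CPM in sinusoidal ECs, 54.3 and 65.8 CPM in metaphyseal ECs and 2.89 and 6.29 CPM in arterial ECs. For F8 the log2 fold change was 2.45 ± 0.12 (SE, edgeR adjusted p = 7.2e-07) and 6.15 ± 0.25 (SE, edgeR adjusted p = 1.33e-07, 5.37 without library 1). Thbd, thrombomodulin, was at 574 and 584 CPM in sinusoidal ECs, 256 and 233 CPM in metaphyseal ECs and 86.7 and 85.9 CPM in arterial ECs (1.27 and 2.7). Vwf, the platelet-binding multimer that carries factor VIII in blood, did not go with F8. Vwf was at 12.2 and 5.93 CPM in sinusoidal ECs, 5.43 and 2.97 CPM in metaphyseal ECs and 37.6 and 25.1 CPM in arterial ECs, lower than in arterial ECs (-1.81 ± 0.32 (SE, edgeR adjusted p = 0.00226)) and narrowly past the threshold against metaphyseal ECs (1.12 ± 0.35 (SE, edgeR adjusted p = 0.0453)). Plat, the tissue plasminogen activator, was at 6.62 and 7.9 CPM in sinusoidal ECs, 96.2 and 83.6 CPM in metaphyseal ECs and 89.6 and 105 CPM in arterial ECs and had log2 fold changes of -3.6 and -3.76. Lower in both comparisons were also the ectonucleotidase Entpd1 (-0.76 and -1.14) and the nitric oxide synthase Nos3 (-1.37 and -1.73).

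Of 26 transcription factors, 14 were higher and 3 lower than in metaphyseal ECs, and 10 and 6 than in arterial ECs (medians 0.49 and 0.34). Maf, a basic leucine zipper factor, was at 215 and 228 CPM in sinusoidal ECs, 141 and 169 CPM in metaphyseal ECs and 14.4 and 14.7 CPM in arterial ECs (0.55 and 3.87). Nr2f2 (COUP-TFII), the factor of venous identity, was at 482 and 478 CPM in sinusoidal ECs, 220.0 and 242 CPM in metaphyseal ECs and 36.1 and 27.2 CPM in arterial ECs, and its log2 fold changes were 1.08 ± 0.10 (SE, edgeR adjusted p = 5.72e-05) and 3.85 ± 0.15 (SE, edgeR adjusted p = 1.04e-07). Irf8, an interferon regulatory factor known from myeloid cells, was at 119.5 and 113 CPM against 22.9 and 21.8 CPM in metaphyseal ECs (2.4 ± 0.14 (SE, edgeR adjusted p = 2.51e-06)). It had 1 UMI in all arterial ECs, a ratio of 136-fold (95% counting interval 24.4 to 5389, 53.9-fold without library 1). In the same sums the macrophage genes C1qa, C1qb, C1qc, Adgre1 and Csf1r were at or near 0, and Lyz2 and Fcer1g were not. Sox17, the arterial SOX factor, was at 47.1 and 59.7 CPM in sinusoidal ECs, 110.2 and 92.9 CPM in metaphyseal ECs and 569 and 518 CPM in arterial ECs, with log2 fold changes of -0.91 and -3.4 (edgeR adjusted p = 0.00167 and 2.26e-07). Klf4, a flow-responsive factor, was higher than in metaphyseal ECs (1.35) and not past the threshold against arterial ECs (adjusted p = 0.484), at 462 and 445 CPM in sinusoidal ECs, 197 and 164 CPM in metaphyseal ECs and 348 and 444 CPM in arterial ECs.

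Most genes of the Notch pathway, which patterns arteries, were lower than in arterial ECs and split against metaphyseal ECs. Of 13 genes, 7 were lower and 2 higher than in arterial ECs (median -0.37), and 5 lower and 5 higher than in metaphyseal ECs (median 0.20). Jag2, a Notch ligand, was at 6.27 and 5.14 CPM in sinusoidal ECs, 36.1 and 42 CPM in metaphyseal ECs and 150.3 and 178 CPM in arterial ECs and Hey1, a Notch target, at 4.18 and 1.19 CPM in sinusoidal ECs, 10.5 and 8.9 CPM in metaphyseal ECs and 131 and 149 CPM in arterial ECs. They differed by -2.72 and -4.86 and by -1.77 and -5.66 on the log2 scale, for Hey1 -1.12 without library 2 against metaphyseal ECs and -4.69 without library 2 against arterial ECs. Dll4, the ligand of arteries and tip cells, was at 64.1 and 59.3 CPM in sinusoidal ECs, 57 and 52.4 CPM in metaphyseal ECs and 205 and 205 CPM in arterial ECs, lower than in arterial ECs (-1.77 ± 0.11 (SE, edgeR adjusted p = 2.7e-06)) and not past the threshold against metaphyseal ECs (adjusted p = 0.24). Hes1, another target, went the other way with 643 and 673 CPM in sinusoidal ECs, 363 and 443 CPM in metaphyseal ECs and 282 and 331 CPM in arterial ECs (0.74 and 1.06). Among 19 genes of VEGF, angiopoietin and guidance signalling, 2 were higher and 3 lower than in metaphyseal ECs and 5 and 9 than in arterial ECs (medians -0.06 and -0.43). Efnb2, the ephrin of arteries, was at 29.6 and 32 CPM in sinusoidal ECs, 122 and 139 CPM in metaphyseal ECs and 407 and 482 CPM in arterial ECs (-2.05 and -3.89). Its receptor Ephb4, a venous marker, was at 170.4 and 167 CPM in sinusoidal ECs, 175 and 189 CPM in metaphyseal ECs and 149 and 119 CPM in arterial ECs and passed the threshold in neither. Vegfa was at 29.6 and 39.1 CPM in sinusoidal ECs, 3.88 and 8.4 CPM in metaphyseal ECs and 13 and 21 CPM in arterial ECs, higher in both comparisons (2.54 and 0.99), and cells outside the endothelial gate had 73.1 and 78.1 CPM.

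**Figure D4:**
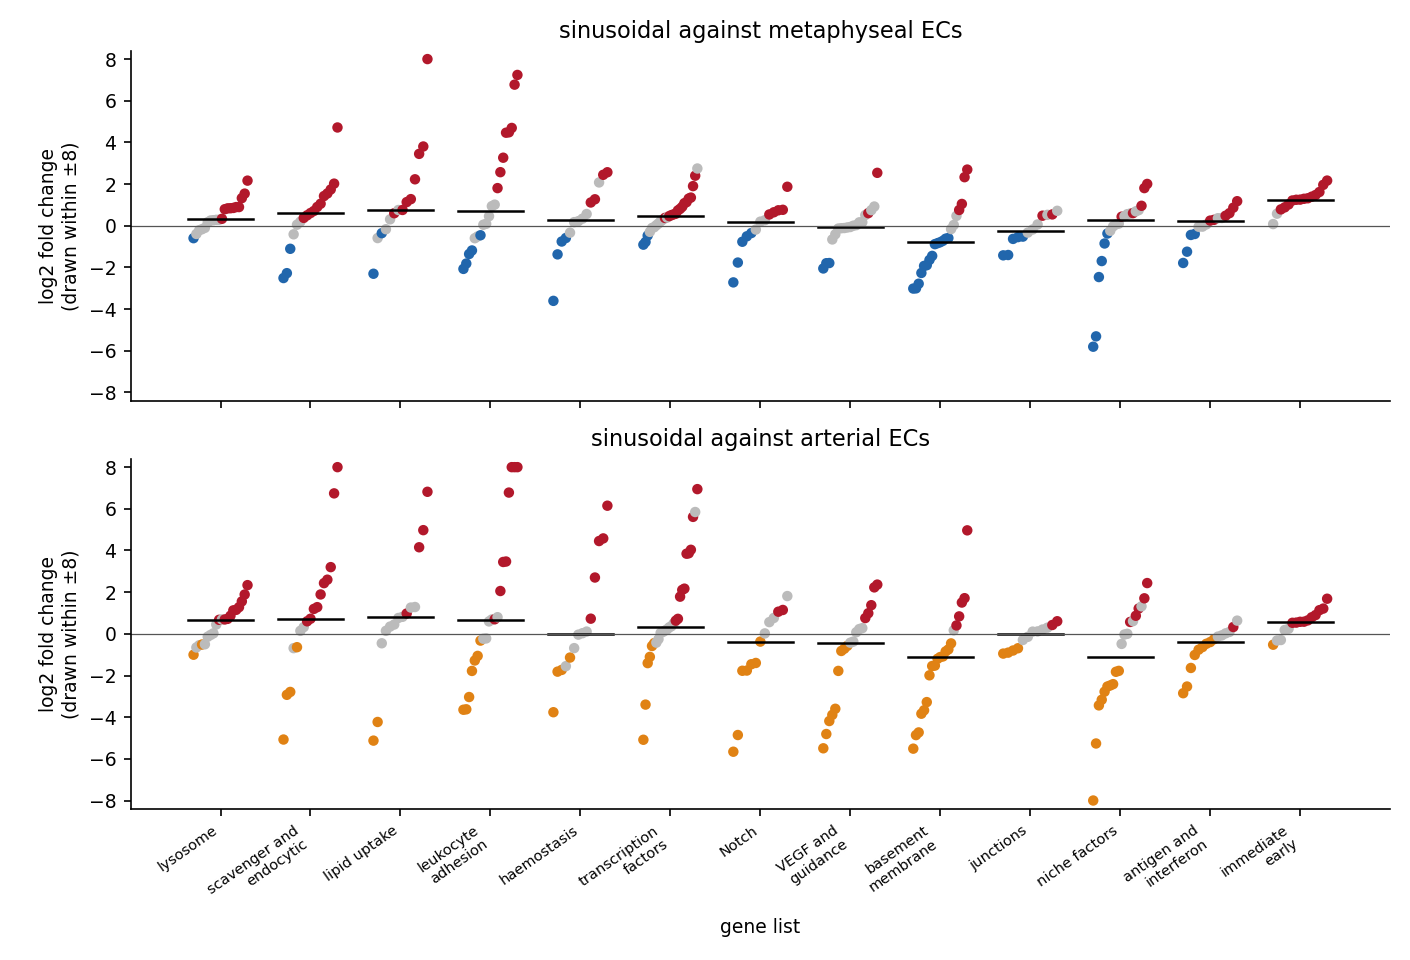
Log2 fold change (edgeR) of each tested gene of 13 lists, sinusoidal against metaphyseal ECs (top) and arterial ECs (bottom). Red points were past the threshold and higher in sinusoidal ECs, blue and orange ones lower, grey ones not past it, black bars are list medians, and values beyond 8 are drawn at 8. Lysosomal and immediate early genes lay mostly above 0 and basement membrane genes mostly below it in both panels.

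Basement membrane genes were mostly lower in sinusoidal ECs. Of 21 tested, 14 were lower and 4 higher than in metaphyseal ECs, and 15 and 5 than in arterial ECs (medians -0.79 and -1.11). Col18a1, the collagen that carries endostatin, was at 48.4 and 51 CPM in sinusoidal ECs, 387 and 433 CPM in metaphyseal ECs and 1409 and 1389 CPM in arterial ECs. Its log2 fold changes were -3.01 and -4.86 (edgeR adjusted p = 6.81e-08 and 1.97e-09), with no overlap. Col4a1, a chain of the collagen IV network, was at 1393 and 1428 CPM in sinusoidal ECs, 2533 and 2589 CPM in metaphyseal ECs and 2638 and 3168 CPM in arterial ECs (-0.83 and -1.08), and Col4a2 followed it (-0.88 and -1.2). The laminin chains Lama4 (-1.45 and -1.11) and Lamb1 (-1.93 and -1.55) and the linker Nid2 (-2.27 and -1.99) were lower as well. The other nidogen went the opposite way, and Nid1 was at 628 and 607 CPM in sinusoidal ECs, 387 and 358 CPM in metaphyseal ECs and 215 and 207 CPM in arterial ECs (0.76 and 1.5). Higher with it were Itga1, a collagen-binding integrin, at 365 and 379.7 CPM in sinusoidal ECs, 71.8 and 79.1 CPM in metaphyseal ECs and 121 and 96.4 CPM in arterial ECs (2.33 and 1.71), and the multimerins Mmrn1 (2.7 and 4.97, the latter 3.5 without library 1 and 6.74 without library 2) and Mmrn2 (1.05 and 0.84).

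Of 12 junction genes, 2 were higher and 5 lower than in metaphyseal ECs and 2 and 4 than in arterial ECs (medians -0.25 and -0.02), among them the catenin Ctnnb1 (-0.54 and -0.69) and the connexin Gjc1 (-1.42 and -0.9), both lower in each comparison. Of 12 pan-endothelial genes outside the gate, 1 was higher and 5 lower than in metaphyseal ECs, and 5 and 5 than in arterial ECs. Cd34, the sialomucin of most capillaries, stood out at 171 and 209 CPM in sinusoidal ECs, 986 and 978 CPM in metaphyseal ECs and 919 and 876 CPM in arterial ECs. Its log2 fold changes were -2.35 ± 0.10 (SE, edgeR adjusted p = 3.68e-07) and -2.29 ± 0.10 (SE, edgeR adjusted p = 2.51e-07). Emcn, a mucin of veins and capillaries, was between the others at 1348 and 1293 CPM in sinusoidal ECs, 2252 and 2063 CPM in metaphyseal ECs and 770.0 and 677 CPM in arterial ECs (-0.68 and 0.82). Plvap, the diaphragm protein of fenestrae, was at 1754 and 1717 CPM in sinusoidal ECs, 1967 and 1884 CPM in metaphyseal ECs and 1131 and 932 CPM in arterial ECs, higher than in arterial ECs (0.71) and not past the threshold against metaphyseal ECs (adjusted p = 0.204).

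Of 20 secreted factors that blood vessels supply to their surroundings, 5 were higher and 6 lower than in metaphyseal ECs and 5 and 10 than in arterial ECs (medians 0.27 and -1.13, and -0.08 and -1.89 without the cells that carried RNA of other types). Kitl, the stem cell factor that maintains haematopoietic stem cells, was at 49.1 and 40.7 CPM in sinusoidal ECs, 158 and 139 CPM in metaphyseal ECs and 380.0 and 402 CPM in arterial ECs and 614 and 679 CPM outside the endothelial gate. Its log2 fold changes were -1.69 ± 0.12 (SE, edgeR adjusted p = 1.04e-05) and -3.16 ± 0.13 (SE, edgeR adjusted p = 1.55e-07). Cxcl12, the chemokine that retains these stem cells, was at 533 and 377 CPM in sinusoidal ECs, 391 and 191 CPM in metaphyseal ECs and 1971 and 2910.3 CPM in arterial ECs, lower than in arterial ECs (-2.53 ± 0.30 (SE, edgeR adjusted p = 0.000161, -1.91 without library 2)) and not past the threshold against metaphyseal ECs (adjusted p = 0.11). Outside the gate Cxcl12 reached 8746 and 9268 CPM, and 56.3% and 71.1% of its unthinned UMIs in members came from 5 cells of a library. With called doublets removed it came out higher than in metaphyseal ECs (log2 fold change 1.3), and with the cells that carried RNA of other types removed, slightly lower (-0.19, not past the threshold). Igfbp3, a carrier of insulin-like growth factors, was at 32.8 and 43.1 CPM in sinusoidal ECs, 223 and 199 CPM in metaphyseal ECs and 1328 and 1486 CPM in arterial ECs (-2.46 and -5.26). Igfbp4, of the same family, went the other way at 2239.7 and 2047 CPM in sinusoidal ECs, 1526 and 1346 CPM in metaphyseal ECs and 965 and 826 CPM in arterial ECs (0.61 and 1.22).

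Of 15 genes of antigen presentation and interferon response, 6 were higher and 4 lower than in metaphyseal ECs, and 1 and 9 than in arterial ECs (medians 0.25 and -0.40). H2-K1, a class I molecule, was at 533 and 414 CPM in sinusoidal ECs, 223 and 201 CPM in metaphyseal ECs and 514 and 448 CPM in arterial ECs (1.18 ± 0.10 (SE, edgeR adjusted p = 2.13e-05) against metaphyseal ECs). Ly6a (Sca-1), which marks arterial ECs of the marrow, was at 219 and 251 CPM in sinusoidal ECs, 571 and 556 CPM in metaphyseal ECs and 1472 and 1808 CPM in arterial ECs (-1.24 and -2.85). Both belong to families of similar sequence, in which reads may be split between members. The class II genes H2-Aa, H2-Ab1, H2-Eb1 and Cd74 were at or below 2.77 CPM in the members. Of 9 genes of iron handling, 4 were higher and 0 lower than in metaphyseal ECs and 4 and 1 than in arterial ECs. Hmox1, which breaks down haem, was at 159 and 158 CPM in sinusoidal ECs, 53.5 and 47 CPM in metaphyseal ECs and 43.3 and 50.3 CPM in arterial ECs (1.68 ± 0.11 (SE, edgeR adjusted p = 4.87e-06) and 1.74 ± 0.15 (SE, edgeR adjusted p = 2.47e-05)). Slc40a1, the iron exporter ferroportin, was at 69 and 61.6 CPM in sinusoidal ECs, 44.6 and 46.5 CPM in metaphyseal ECs and 5.78 and 10.5 CPM in arterial ECs (0.55 and 3.04, the latter 2.39 without library 1).

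Immediate early and heat shock genes, which cells switch on within minutes of stress or growth signals, were higher in sinusoidal ECs. Of 15 tested, 13 were higher and 0 lower than in metaphyseal ECs, and 10 and 1 than in arterial ECs (medians 1.25 and 0.58). With the Pdgfra-GFP library in place of library 1 or of library 2, 4 and 5 were higher than in arterial ECs. Fos, a subunit of AP-1, was at 1703 and 1631 CPM in sinusoidal ECs, 436 and 434 CPM in metaphyseal ECs and 842 and 886 CPM in arterial ECs, with log2 fold changes of 1.96 ± 0.07 (SE, edgeR adjusted p = 1.57e-07) and 0.9 ± 0.07 (SE, edgeR adjusted p = 1.21e-05). Cells outside the endothelial gate had 1782 and 1745 CPM. Jun, its partner, was at 1650.3 and 1515 CPM in sinusoidal ECs, 688 and 605 CPM in metaphyseal ECs and 745 and 652 CPM in arterial ECs (1.32 and 1.14), and the heat shock gene Hspa1a at 1110.1 and 1019 CPM in sinusoidal ECs, 552 and 515 CPM in metaphyseal ECs and 376 and 519.6 CPM in arterial ECs (1.02 and 1.21). The members differed among themselves in these genes. With each member thinned to 2500 UMIs, the list summed to a median of 8.0 and 8.0 UMIs, with 29 and 38 members at 0 and 5% of members above 90.0 and 80.4. Across members, Fos and Jun had a correlation (Pearson, log scale) of 0.763 over 477 and 0.782 over 394 cells. The cells of each value share a library and a dissociation. In the 84 cells that met the same rule in the Pdgfra-GFP library the correlation was 0.368. The part of tissue handling in these levels was not tested.

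RNA of other cell types was present in the sums, unevenly between libraries. All 6 neutrophil genes tested were higher in sinusoidal ECs in both comparisons, and the list summed to 1555 and 4875 CPM there, 45.8 and 79.1 CPM in metaphyseal and 50.6 and 96.4 CPM in arterial ECs. Outside the endothelial gate it summed to 15067 and 20222 CPM, led by S100a9 (6519 and 8179 CPM). In the members, S100a8, a calcium-binding protein of neutrophils, was at 502 and 1801 CPM, and 5 cells held 96.1% and 98.5% of its unthinned UMIs. Camp (116 and 561 CPM), Ngp (131 and 331 CPM) and Retnlg (81.9 and 88.1 CPM), further neutrophil genes, were present as well. Elane and Mpo, of earlier granulocytes, were at or below 1.39 CPM. With the cells that carried RNA of other types removed (a step chosen after seeing the data), 5 of these genes could be tested and 1 was higher in each comparison, and S100a8 and Camp gave log2 fold changes of 0.52 and 0.77 against metaphyseal ECs (edgeR adjusted p = 0.0518 and 0.182). The erythroid list summed to 205 and 215 CPM in the members and to 113 and 24127 CPM in arterial ECs, led by Hbb-bs. In the members Hbb-bs had a UMI in 36% and 42.1% of unthinned cells, and 5 cells held 31.7% and 29.2% of its UMIs. The 11 marrow stromal genes summed to 833 and 7057 CPM in the members and 9029.6 and 356 CPM in arterial ECs, led in the members by Col1a1 (356 and 4172 CPM), with 2 higher than in metaphyseal ECs, and the 8 osteoblast genes to 1305 and 3065 CPM, with none of 7 tested past the threshold. The 6 cartilage genes summed to 420.3 and 304 CPM in the members, 60.9 and 1031 CPM in metaphyseal ECs and 13 and 35.6 CPM in arterial ECs, with 1 of 4 tested lower than in metaphyseal ECs and 2 higher than in arterial ECs. Col10a1 led them in the members (359 and 248 CPM), with 97.9% and 95.5% of its unthinned UMIs in 5 cells. The 8 mural genes summed to 941 and 904 CPM in the members and 160.2 and 145 CPM in metaphyseal ECs, nearly all of it Kcnj8 and Abcc9 (below), the 2 that were tested and higher in both comparisons. Notch3 was at 7.67 and 3.16 CPM, and Acta2, Myh11, Rgs5, Cspg4 and Tagln were at or below 2.79 CPM. The part of other cells' RNA in the results was not tested beyond the step above.

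By the rule for naming genes (10 largest log2 fold changes each way among genes of at least 50 CPM in the higher population), Ubd led the genes higher than in metaphyseal ECs. Ubd, the ubiquitin-like modifier FAT10 (chr17:37193892-37196095, plus strand), stood at 367 and 275 CPM. Its 3 UMIs in all metaphyseal ECs make it 497-fold (95% counting interval 169.8 to 2412) higher, and with no UMI in arterial ECs it was at least 126-fold higher there (edgeR adjusted p = 6.81e-08 and 1.55e-07). Clca3a1, a regulator of chloride channels, was at 352 and 329 CPM in sinusoidal ECs, 0.388 and 2.47 CPM in metaphyseal ECs and 8.67 and 10.5 CPM in arterial ECs (7.98 ± 0.26 (SE, edgeR adjusted p = 7.01e-08, 6.57 without library 1)). Rgs4, which shortens G protein signals, was at 129 and 131 CPM, with 3 UMIs in metaphyseal ECs and a ratio of 199-fold (95% counting interval 67.8 to 968). Ston2, an endocytic adaptor, had a ratio of 111-fold (95% counting interval 37.6 to 539, 55.4-fold without library 2), at 64.5 and 81 CPM. Cxadr, a junctional adhesion molecule that adenoviruses bind, was at 92.4 and 74.3 and 0.776 and 0.989 CPM in sinusoidal and metaphyseal ECs (6.52 ± 0.27 (SE, edgeR adjusted p = 3.29e-07, 5.22 without library 1 and 5.66 without library 2)). Lipg and Ackr1 (above) and the neutrophil-expressed Camp, Chil3 and S100a8 completed the 10.

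Against arterial ECs, Gpr182, an atypical receptor that takes up chemokines (chr10:127747276-127751732, minus strand), led the list at 364 and 342 CPM. No arterial EC had a UMI of it, so it was at least 138-fold higher, and metaphyseal ECs were in between at 86.5 and 90.5 CPM (2.02 ± 0.10 (SE, edgeR adjusted p = 3.07e-06)). Kcnj8 and Abcc9, the pore and the regulatory subunit of an ATP-sensitive potassium channel known from mural cells, rose together. Kcnj8 was at 412 and 359 CPM in sinusoidal ECs, 69.1 and 54.4 CPM in metaphyseal ECs and 0 and 2.1 CPM in arterial ECs, and Abcc9 at 515 and 535 CPM in sinusoidal ECs, 82.3 and 81.1 CPM in metaphyseal ECs and 5.78 and 6.29 CPM in arterial ECs. Against metaphyseal ECs they differed by 2.67 ± 0.13 (SE, edgeR adjusted p = 8.69e-07) and 2.71 ± 0.10 (SE, edgeR adjusted p = 1.55e-07). Sema3a, a repulsive guidance cue, was at 173 and 151 CPM with 191-fold (95% counting interval 34.1 to 7536, 119.9-fold without library 2) the arterial level, and Gatm, an enzyme of creatine synthesis, at 115 and 107 CPM with 129.9-fold (95% counting interval 23.2 to 5141, 79.6-fold without library 2). Pf4, a chemokine best known from platelets, was at 69.4 and 60.1 CPM in the members and 39.2 and 37.6 CPM in metaphyseal ECs, with no arterial UMI (at least 25.3-fold higher). The 8 megakaryocyte genes summed to 82.6 and 68.8 CPM in the members, nearly all of it Pf4 and Itga2b (12.9 and 7.9 CPM, lower than the 20.2 and 18.3 CPM of metaphyseal ECs), and the other 6 were each at or below 0.395 CPM. Ubd, Ackr1, Sele, Irf8 and the neutrophil-expressed Lcn2 were the others.

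The same rule gave the genes most strongly lower in sinusoidal ECs. Gap43, a growth cone protein, was at 0.697 and 1.58 CPM against 60.5 and 48.9 CPM in metaphyseal ECs (-5.52 ± 0.36 (SE, edgeR adjusted p = 5.02e-06, -4.2 without library 1)). Ptn, the growth factor pleiotrophin, was at 8.71 and 8.3 against 363 and 318 CPM (-5.31 ± 0.31 (SE, edgeR adjusted p = 2.55e-06)). Nts, neurotensin, was at 2.79 and 0 against 55.9 and 57.8 CPM (-5.18, -3.87 without library 2). Cdh13, T-cadherin, was at 5.23 and 8.3 CPM in sinusoidal ECs, 86.5 and 107 CPM in metaphyseal ECs and 277 and 306 CPM in arterial ECs. The channel subunits Lrrc55 (-3.25) and Kcne3 (-3.13), the exchange factor Mcf2l (-3.15), Plat and Col18a1 were the others lower than in metaphyseal ECs, with Snorc, a chondrocyte proteoglycan whose 8.92 and 135 CPM in metaphyseal ECs lay mostly in library 2. Against arterial ECs, the Wnt modulator Dkk2 had no UMI in 872 members and 105 and 157 CPM in arterial ECs, which makes it at least 228-fold lower. The actin-binding Nebl (at least 209-fold lower), the sialyltransferase St8sia6 (at least 145-fold) and the HGF receptor Met (at least 102-fold) were likewise at 0. Stmn2, a microtubule regulator, was at 1.05 and 0.395 against 653 and 652 CPM (-9.7 ± 0.20 (SE, edgeR adjusted p = 1.97e-09, -8.87 without library 1 and -8.3 without library 2)). Ace, the angiotensin-converting enzyme, was at 1.05 and 0.395 against 76.6 and 85.9 CPM (-6.69, -5.96 without library 1 and -5.22 without library 2), S100a4, a calcium-binding protein, at 1.39 and 4.35 against 293 and 505 CPM (-7.16). The phosphatase Ptprr, the carbonic anhydrase Car7 and the transporter Slc45a4 had at most 3 UMIs in the members.

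The members were not uniform. Ackr1, chosen as the dividing gene after its values were seen, had a UMI in 159 of 477 and 111 of 394 members thinned to 2500 UMIs. The depth of both kinds was alike, with medians of 5607 against 5594 UMIs in library 1 and 5884 against 5939 in library 2. Ubd had a UMI in 64.2% and 56.8% of the members with an Ackr1 UMI and in 21.7% and 18% of the others. Lipg was found in 49.7% and 59.5% of the members with an Ackr1 UMI and in 24.8% and 29% of the others, and Sele in 34% and 37.8% of the members with an Ackr1 UMI and in 17% and 12.4% of the others. In the Pdgfra-GFP library, where Ackr1 was found in 60 of the 84 cells that met the same rule, Ubd had a UMI in 81.7% of these and 45.8% of the others, but Sele in 11.7% and 12.5%, Lipg in 51.7% and 41.7%, Rgs4 in 48.3% and 25% and Cd34 in 3.33% and 8.33%. The 95% intervals of both kinds overlapped there for Sele, Lipg, Rgs4 and Cd34. In libraries 1 and 2, Rgs4 was found in 28.9% and 31.5% of the members with an Ackr1 UMI and in 10.7% and 9.89% of the others. Cd34 ran the other way, in 13.2% and 16.2% of the members with an Ackr1 UMI and in 33% and 42.4% of the others. Mean Fabp4 was 37.8 and 32.1 UMIs in members with Ackr1 and 23.9 and 20.7 in the others. The rise was not limited to these genes. Vcam1 was found in 84.9% and 88.3% of members with an Ackr1 UMI and 69.8% and 66.4% of the others. For the gate gene Stab2 the shares were 81.1% and 84.7% against 73.9% and 71.7%. Selp, Icam1, Gpr182, Fos and Jun were also more frequent with Ackr1 in both libraries. Outside the endothelial gate, 0.165% and 0.186% of cells had an Ackr1 UMI at this depth and 0.0826% and 0.186% a Lipg UMI, which is given as the background that free RNA can reach. Without thinning, 47.7% and 41.4% of members had an Ackr1 UMI. A cell without an Ackr1 UMI may still express it, and these shares describe cells of 2 libraries, with no test.

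**Figure D5:**
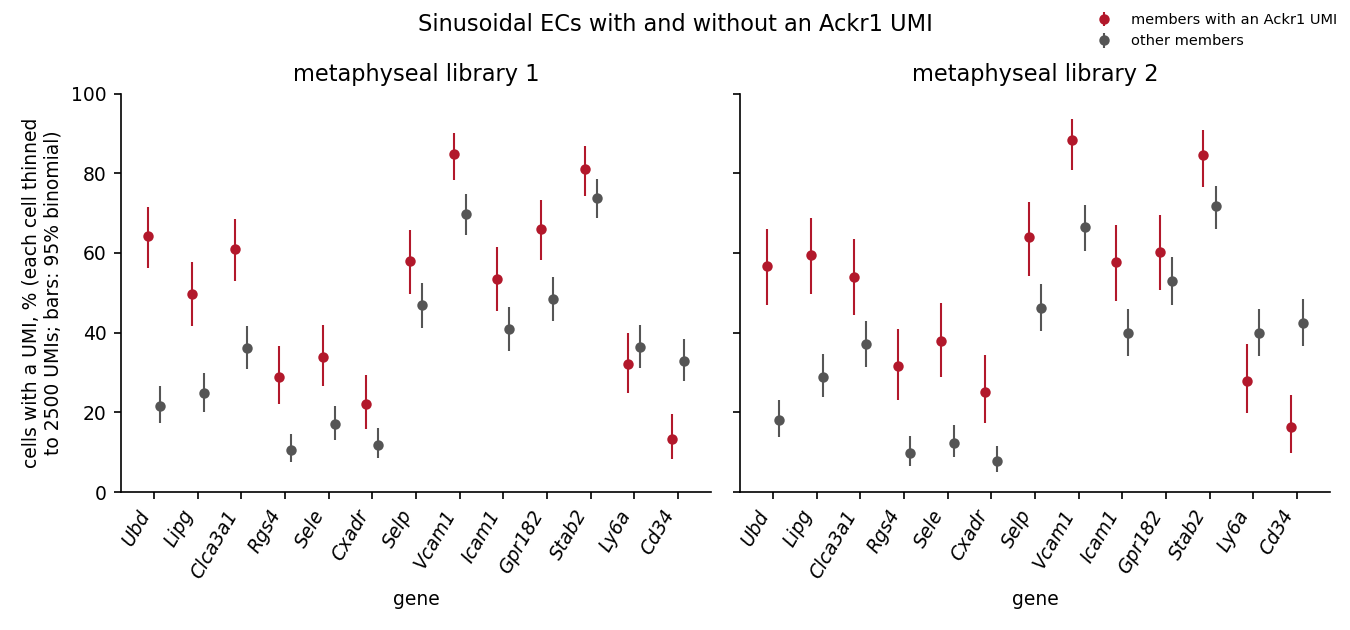
Share of sinusoidal ECs with a UMI of each gene (%, each cell thinned to 2500 UMIs, bars exact 95% binomial intervals) among members with an Ackr1 UMI (red) and the others (grey), in libraries 1 (left) and 2 (right). Ubd, Lipg, Clca3a1, Rgs4, Sele and Cxadr were more frequent in the red cells of both libraries, as were Selp, Vcam1, Icam1, Gpr182 and Stab2. Cd34 and Ly6a were less frequent there.

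Ranked by the Fano factor (variance over mean) of thinned UMIs among 2090 genes, the most variable genes of the members were those of other cell types concentrated in a few cells, S100a9 (155 and 394), S100a8 and Col1a1 (36.3 and 238), against a median of 1.09 over the genes. The noncoding RNAs Gm42418 (31.6 and 34.3), Malat1 (22.4 and 19.9) and mt-Rnr2 (15 and 16.3), found in nearly every member, also ranked high. Among protein-coding genes found in many members were Hspa1a (13.8 and 11.1), Fos (13.9 and 10.9), Fabp4 (11.6 and 10.8) and Jun (9.79 and 8.56). Fos had a UMI in 56.5% and 57.9% of unthinned members, and Fabp4 in 98.3% and 98.5%. Ctsl (5.65 and 4.88) and Vcam1 (4.03 and 4.02) had lower Fano factors. Their mean thinned UMIs were also lower, at 6.07 and 4.71 for Ctsl and 3.71 and 3.2 for Vcam1, beside 28.2 and 24 for Fabp4. The Fano factor tends to rise with the mean where cells differ in level. The ranking therefore does not show which of these genes varied more relative to its level.

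The same rule found 84 of 280 ECs (95% interval 24.7% to 35.7%) in the Pdgfra-GFP library, among 9015 cells. These cells were sorted as GFP+, yet the reporter transcript was at 5.73 CPM in them (3 UMIs) against 98.7 CPM in cells outside the endothelial gate. Arterial ECs of this sort had 388 CPM (177 UMIs) and metaphyseal ECs 24.3 CPM. With 1 library there is no test, and levels are set beside those of the members of libraries 1 and 2. Fabp4 was at 21396 CPM, beside 11519 and 9736. Ackr1 was at 724 CPM, beside 329 and 263, Gpr182 at 521, beside 364 and 342, and Lipg at 252, beside 201 and 213. Lower than in both metaphyseal libraries were F8 at 141 CPM, beside 325 and 314, and Cd34 at 47.8, beside 171 and 209. Hspa1a was at 143 CPM, beside 1110.1 and 1019, and the neutrophil gene S100a8 at 43.9, beside 502 and 1801, while Hba-a1, a haemoglobin chain, was at 2118, beside 36.6 and 32.8. Genotype, sort and the dissected region, which the study also describes as metaphysis with epiphysis, differ together from the metaphyseal libraries and cannot be told apart. Within that library Fabp4 was also highest in sinusoidal ECs, with 21396, 1991 and 2119 CPM in sinusoidal, metaphyseal and arterial ECs. So were Stab1 (479, 265 and 30.7 CPM in the same order), Tfpi (1794, 270.1 and 72.3 CPM) and Jun (615, 333 and 449 CPM). Fos (1024, 501 and 1045 CPM) and Hspa1a (143, 105 and 300 CPM) were instead highest in arterial ECs there.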

How the data were processed

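The deposited files hold raw counts of UMIs per gene and barcode, which the authors made with fastp 0.20 and STARsolo (STAR 2.7.3a) on mm10 with Gencode M23 genes and the reporter added. All 3 matrices hold 55422 genes and 6794880 barcodes. Cells were filtered and gated as in the report, UMIs were summed per library and population (6 sums), genes were kept by filterByExpr, scaled by TMM and tested with edgeR 4.0.16 in R 4.3.3 (glmQLFit, glmQLFTest, library as a block, Benjamini-Hochberg, threshold 0.05). The residual degrees of freedom were 2 and the prior ones 7.44. The populations of a library share a suspension, which is why the library is a block; the correlation of deviations between same-library sums was 0.10 for sinusoidal and metaphyseal, -0.02 for sinusoidal and arterial and -0.04 for metaphyseal and arterial ECs. Doublets were called with Scrublet (scanpy 1.11.5) and kept, except in an alternative. Thinning drew 2500 UMIs per cell and left out shallower cells. Intervals are at 95%, and the floor for a population with 0 UMIs is 3 UMIs over both libraries.

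Named genes are the 10 largest log2 fold changes each way with adjusted p under 0.05, the same sign in both libraries and at least 50 CPM in the higher population, outside the gates, gene models and mitochondrial and ribosomal genes. In addition, genes of the lists are named. Members, lists and tests were chosen with earlier results of these data known. Alternatives were DESeq2 1.42.0, RLE factors, no count filter, other gates, doublet removal, thinning and other sets of libraries. The fit was tested on simulated data. Of simulated 2-fold changes it found 64.3% against metaphyseal and 35.2% against arterial ECs, and of 4-fold changes 92.7% and 81.25%. False calls numbered 14 and 4 at 2-fold and 17 and 7 at 4-fold. A gene not past the threshold may therefore still differ, above all against arterial ECs. A few genes of the lists are not reported here by name.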

Additional observations from a re-analysis of the deposited data

Results flagged for a closer look

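The rule for sinusoidal ECs also found 84 cells in the Pdgfra-GFP library, which the main comparisons did not use. They stood out because a sort for GFP+ cells held sinusoidal ECs, with the reporter transcript at 5.73 CPM in them, 24.3 CPM in metaphyseal ECs and 388 CPM in arterial ECs of the same library. Each group of the comparisons had 2 libraries, too few to ask whether 1 library lay apart from the rest.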

How the results depend on the processing

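The number of genes past the threshold against metaphyseal ECs (2614) was 1019 by DESeq2, 1590 with every cell thinned to 2500 UMIs, and 968 and 995 with the Pdgfra-GFP library in place of library 1 or library 2. Against arterial ECs (3029) the same settings gave 1764, 1794, 1648 and 1781. Replacing a library, and removing cells with RNA of other cell types, were chosen after seeing the data. The other settings stayed within 1.5 times, and without the replicate block 2485 and 2995 genes passed. Leaving out a library left no residual degrees of freedom, so it gave fold changes and no count. The sinusoidal share of ECs (41.7%) was 39.9% with at least 3 sinusoidal genes and 39.1% with cells thinned before gating, and 40.8% to 42.6% with 1 library left out.

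Of 165 log2 fold changes of single genes in the text, 161 were past the threshold, and 25 of these lost it in at least 1 of 16 settings. Without the replicate block this held for Vwf (adjusted p = 0.0982), Lpl (0.0948) and Gpihbp1 (0.0642) against metaphyseal ECs and Vegfa (0.0617) against arterial ECs, and it changed no other call among these genes. Hspa1a lost its call against both populations with the Pdgfra-GFP library added (adjusted p = 0.0554 and 0.247). Other calls lost with that library added or put in for library 1 or library 2 were Gpihbp1, Vwf, Hey1, Hes1, Kitl, Slc40a1 and Ctsb against metaphyseal ECs, Ctnnb1 against both, and Plvap, Cxcl12 and Fos against arterial ECs. DESeq2 lost Vwf, Lpl, Gpihbp1, Maf, Mmrn1 and Slc40a1 against metaphyseal ECs and Vegfa, Asah1 and Gjc1 against arterial ECs. Thinning lost Vwf against both, Hey1 against metaphyseal ECs, and Asah1 and Gjc1 against arterial ECs. Asking for at least 3 gate genes lost Vwf and Snorc against metaphyseal ECs and Vegfa and Lcn2 against arterial ECs, and removing cells with RNA of other types lost Camp and S100a8 against metaphyseal ECs. The sign turned for 3 differences that had not passed: Cxcl12 against metaphyseal ECs (-0.19 without cells carrying RNA of other types), Dll4 against metaphyseal ECs (-0.0147 when thinned), and Klf4 against arterial ECs (-0.11 with the Pdgfra-GFP library added, -0.34 and -0.15 with it in place of library 1 or library 2, and -0.0598 to 0.376 with 1 library left out). By DESeq2 the genes higher than in metaphyseal ECs were 3 of 14 for lipid handling, 7 of 26 for transcription factors, 6 of 20 for lysosomes, 2 of 13 for Notch (with 2 lower), 2 of 15 for antigen presentation and interferon, 2 of 9 for iron handling, 3 of 20 for secreted factors and 1 of 12 for junctions. The causes were not tested. Log2 values without a library carry a prior count of 2, which makes those of genes with few UMIs smaller than in the fit. For Cxadr, Stmn2 and Ace both such values were smaller in size than the fitted one. They therefore do not show that these results rest on 1 library. Where a printed fold change past the threshold and its value without 1 library differed by over 1.5 times, the latter stands alongside above. This leaves out cases where the lower population then had 0 UMIs, which gives only a lower bound. Without library 1 they were at least 24.1-fold for Sema3a, 17-fold for Gatm and 33.9-fold for Lipg against arterial ECs. Ston2 was at least 54.6-fold against metaphyseal ECs without library 1, and Irf8 at least 27.6-fold against arterial ECs without library 2. The lower bounds against 0 UMIs fall with depth, and the 9 given in the Results against arterial ECs were 9.56-fold to 133-fold with 1 library left out. The arterial comparison rests on 90 and 66 arterial cells.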
